A study of Homo sapiens with 4 samples.

Results

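The comparison set a culture of LvM3b cells over-expressing miR-483 against a culture of the same line over-expressing miR-551a, with 1 Illumina bead array for each culture. A gene was counted as detected where its Detection score, which the deposited table gives for every probe and which runs towards 1 for probes brighter than background, was above 0.99 on at least 1 of these arrays. This gave 9758 genes of the 18665 with a named probe, and no level on another array entered the choice. Of them, 9308 were detected on both arrays, 252 on the miR-483 array alone and 198 on the miR-551a array alone.

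LvM3b is labelled as a colon adenocarcinoma line. The series names the first microRNA as miR-483-5p in its title and as miR-483 in its sample labels. The other groups, 1 array each, were LvM3b control cells and the Ls-Parental colon cancer line, and neither enters the comparison. All cultures were grown in DMEM with 10% FBS, glutamine and sodium pyruvate, and total RNA was taken at about 70% confluency. How the microRNAs were introduced, how far they were raised and whether each culture was 1 clone are not given in the sources used here. No group had a replicate, so no difference below has a test or a replicate error, and effects of the microRNA, of the culture and of the array cannot be told apart.

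A mature microRNA is a short RNA carried by an Argonaute protein. It pairs mainly through its seed, bases 2 to 8, with sites in messenger RNAs, whose translation and stability it lowers. Both cultures carry an added microRNA, so the comparison sets one against the other without the control. With 1 array per culture, what separates the cultures cannot be assigned to the microRNAs. The array measures messenger RNAs and not the mature microRNAs. The human miR-551a sequence, from RefSeq at chr1:3560710-3560730 on the minus strand (GRCh38.p14), is shown with its seed in capitals because that stretch defines which sites it can pair with.
hsa-miR-551a: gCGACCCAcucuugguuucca
Its 21 bases come from a hairpin within the MEGF6 gene, which was not analysed here. IGF2, whose intron holds miR-483, encodes a growth factor and was not detected on either array, with Detection scores of 0.909 with miR-483 and 0.888 with miR-551a.

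The pattern described most fully below involves genes of the amino acid response and the heat shock chaperones. In the amino acid response, shortage of an amino acid or another stress raises translation of the transcription factor ATF4, which binds a composite element in genes for amino acid synthesis and stress. In the heat shock response, unfolded protein frees the factor HSF1, which binds repeats of a GAA unit in chaperone promoters. Promoter windows from 250 bases before to 50 bases after the annotated start (RefSeq, GRCh38.p14) are shown for listed genes that hold a match to such an element, as examples of the letters these factors are known to read. For the amino acid genes, TGATGNAAN was searched on both strands and is in capitals. ATF3 is at chr1:212565157-212565456 on the plus strand, CHAC1 at chr15:40953221-40953520 on the plus strand and ASNS at chr7:97872359-97872658 on the minus strand.
ATF3: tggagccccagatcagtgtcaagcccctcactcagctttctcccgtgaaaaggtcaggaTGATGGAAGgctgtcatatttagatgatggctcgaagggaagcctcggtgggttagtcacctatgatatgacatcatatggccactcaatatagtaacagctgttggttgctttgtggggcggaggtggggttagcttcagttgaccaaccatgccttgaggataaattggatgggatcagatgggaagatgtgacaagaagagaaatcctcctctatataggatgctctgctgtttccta
CHAC1: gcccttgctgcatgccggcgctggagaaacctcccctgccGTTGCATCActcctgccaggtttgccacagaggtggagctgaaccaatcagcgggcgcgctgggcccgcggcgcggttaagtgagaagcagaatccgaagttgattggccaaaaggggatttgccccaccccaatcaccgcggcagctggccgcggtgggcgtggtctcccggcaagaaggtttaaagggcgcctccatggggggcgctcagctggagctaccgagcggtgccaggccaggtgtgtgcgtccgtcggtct
ASNS: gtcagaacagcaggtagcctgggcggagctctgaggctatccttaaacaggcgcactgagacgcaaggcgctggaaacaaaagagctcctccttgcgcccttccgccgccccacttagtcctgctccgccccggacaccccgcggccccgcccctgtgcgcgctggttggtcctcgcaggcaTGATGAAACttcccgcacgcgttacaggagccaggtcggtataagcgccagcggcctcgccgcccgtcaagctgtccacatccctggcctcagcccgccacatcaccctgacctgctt
The ATF3 match runs from base -191 to base -183 relative to the start, and the ASNS match from base -68 to base -60. The CHAC1 match, from base -210 to base -202, lies on the reverse strand. For the chaperones, GAANNTTCNNGAA was searched on both strands and is in capitals. CHORDC1 is at chr11:90223000-90223299 and HSPA8 at chr11:123062087-123062386, both on the minus strand.
CHORDC1: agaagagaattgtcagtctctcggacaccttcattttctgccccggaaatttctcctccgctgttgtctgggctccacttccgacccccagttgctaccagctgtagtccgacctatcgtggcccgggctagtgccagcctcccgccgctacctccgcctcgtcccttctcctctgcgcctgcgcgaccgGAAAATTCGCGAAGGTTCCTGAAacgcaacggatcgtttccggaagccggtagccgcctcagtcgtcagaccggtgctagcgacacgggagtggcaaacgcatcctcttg
HSPA8: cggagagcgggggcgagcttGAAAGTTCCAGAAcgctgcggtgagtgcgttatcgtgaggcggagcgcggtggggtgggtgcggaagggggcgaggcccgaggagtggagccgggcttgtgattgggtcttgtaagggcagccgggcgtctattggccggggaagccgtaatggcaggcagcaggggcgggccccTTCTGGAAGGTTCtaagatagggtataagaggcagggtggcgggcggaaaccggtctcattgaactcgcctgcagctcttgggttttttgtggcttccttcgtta
CHORDC1 holds 3 overlapping matches between bases -60 and -38, and HSPA8 has 1 starting at base -230 and 1 at base -55. The first motif stands in 3.61% of all 35116 promoter windows, in 2.03% of the windows of detected genes and in 4 of the 30 windows of detected amino acid response genes. The second stands in 0.49% of all windows, in 0.348% of those of detected genes and in 6 of the 25 windows of detected chaperone genes. A gene can have several windows, and the lists hold genes known for these elements, so the shares describe the lists and not the arrays.

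The cultures were very alike. Across the 9308 genes detected on both arrays, log2 levels correlated at r = 0.995, a description over genes of 1 pair of arrays, and 98.8% of these genes differed by less than 1.5-fold. Of all 9758 genes, 4868 were lower and 4872 higher with miR-483, with a median log2 difference of 0. At 2-fold, 10 genes were lower (0.102%) and 32 were higher (0.328%) with miR-483. At 1.5-fold, 133 genes were lower (1.36%) and 161 higher (1.65%), a split that became 95 lower and 223 higher when the arrays were scaled to a common median in place of quantile normalisation. These counts rest on dim genes and fell to 14 lower and 27 higher in the authors' processed values, to 16 and 22 without background correction and to 47 and 62 with an offset of 50. All 10 genes at 2-fold lower and 30 of the 32 higher were not detected on the dimmer array, where a level has only an upper limit. Setting such genes at the lowest level detected on the dim array left 0 genes lower and 4 higher at 2-fold: DDIT4, TSC22D3, TRIM60 and RUSC2.

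Among genes detected on both arrays, 0 genes (0%) were 2-fold lower with miR-483 and 2 genes (0.0215%) were 2-fold higher. At 1.5-fold, 60 (0.645%) were lower and 51 (0.548%) higher. Most of these were dim. The SD of the log2 difference was 0.278 for the 983 genes with a mean log2 level under 7 and 0.131 for the 1078 genes at 12 or above. Above a level of 8, only 13 of 6955 genes were 1.5-fold lower and 8 were 1.5-fold higher.

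**Figure D1:**
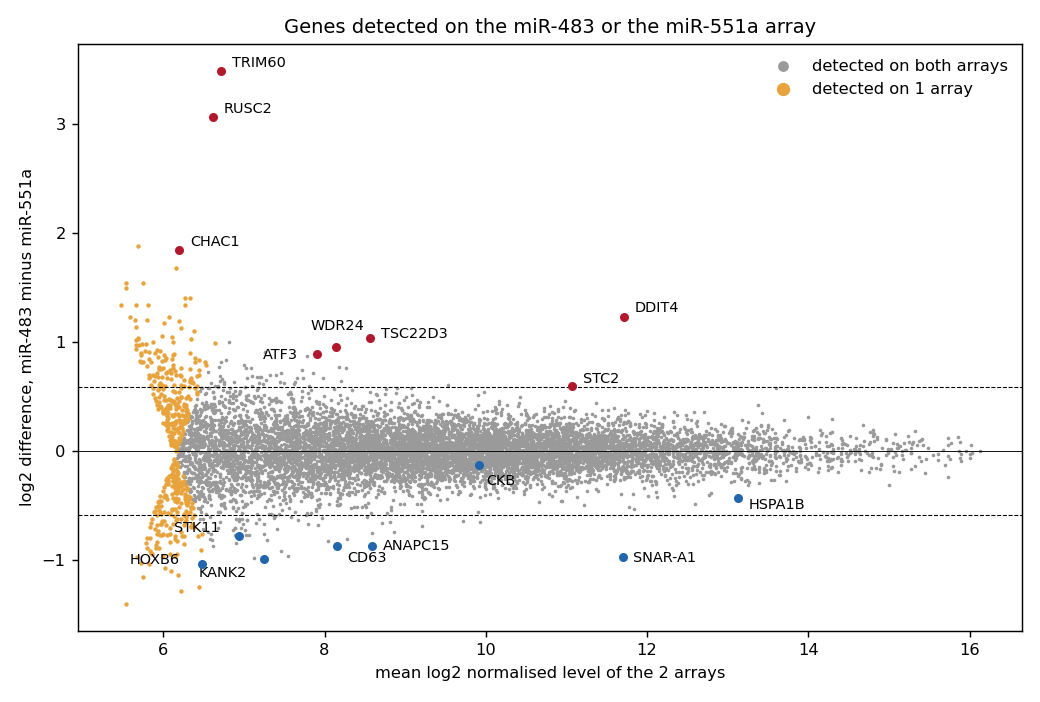
Log2 difference between the arrays (miR-483 minus miR-551a, y axis) against the mean log2 normalised level (x axis) for the 9758 detected genes. Grey points were detected on both arrays and orange points on 1. Coloured points are named genes, red where higher and blue where lower with miR-483, and dashed lines mark 1.5-fold. DDIT4 lies alone at its level, while the widest scatter is at the dim end, where TRIM60, RUSC2 and CHAC1 were not detected on the miR-551a array.

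DDIT4, the stress-induced inhibitor of mTORC1 also called REDD1, stood furthest apart among genes seen on both arrays. Its log2 level was 12.33 with miR-483 and 11.10 with miR-551a, from deposited signals of 5492 and 2164, a 2.35-fold difference. None of the 500 genes nearest in level was as far apart in that direction, which follows from its choice as the furthest gene. The DDIT4 difference was between 2.30-fold and 2.51-fold under the other settings tried. TSC22D3, the glucocorticoid- and FOXO-induced leucine zipper protein GILZ, was at 9.08 and 8.04, which is 2.06-fold, and a second probe of the gene gave a log2 difference of 1.11. It was the only gene of 2214 with at least 2 probes detected on both arrays for which all such probes were 1.5-fold apart in the same direction.

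Other genes on the higher side stood at lower levels. WDR24, a subunit of the GATOR2 complex that relays amino acid supply to mTORC1, was at 8.62 and 7.66, a 1.94-fold difference. ATF3, a stress-induced transcription factor, was at 8.35 with miR-483 and 7.46 with miR-551a, or 1.85-fold. SNCAIP, which encodes a synuclein-binding protein, differed by 1.83-fold, and the defensin gene DEFA5, a Paneth cell product, by 1.70-fold from levels of 8.57 and 7.80. COLCA1 (1.99-fold), FAM120C (1.76-fold), POFUT3 (1.79-fold) and GFRA2 (1.70-fold), a receptor for neurturin, were close to the detection limit on the miR-551a array, at log2 levels of 6.31 to 6.36 against a lowest detected level of 6.16. The zinc finger gene ZFP1 differed by 1.73-fold at its brightest probe and by -0.09 on the log2 scale at its second, so its probes disagreed. HNRNPA3P1 (1.88-fold) is annotated as a pseudogene, and its probe may be shared with copies of HNRNPA3.

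The furthest lower genes with miR-483 were mostly dim. KANK2, an actin-regulating adhesion protein, was at 6.75 with miR-483 and 7.75 with miR-551a, a 1.99-fold difference. KLF3, a repressor of the Krüppel-like family, was at 6.64 and 7.62, or 1.98-fold. The brightest was SNAR-A1, a small non-coding RNA gene, at 11.21 and 12.18 or 1.96-fold, which has near-identical copies, so its probe cannot assign the difference to 1 of them. No other lower gene of the 12 reached a mean level of 9. PALD1 (1.95-fold), CTSZ (1.89-fold), a lysosomal protease, ADGRF5 (1.79-fold), an adhesion receptor, and CCNP (1.77-fold) stood at levels under 8.1 on both arrays. ANAPC15, a subunit of the anaphase-promoting complex, was at 8.15 and 9.02, which is 1.83-fold. CD63, a lysosomal and exosomal tetraspanin, was at 7.72 and 8.59, also 1.83-fold. The non-coding SNHG10 (1.77-fold), the peroxisomal gene PXMP4 (1.83-fold) and POLR1B (1.77-fold), a subunit of RNA polymerase I, complete the group. A second probe of PXMP4 detected on both arrays pointed the other way, with a log2 difference of 0.26. The folds of dim genes on both sides depend on the background correction. Of the 41 named genes past 1.5-fold, 23 stayed so in the authors' processed values. With quantile normalisation and no background correction, 21 stayed so.

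**Figure D2:**
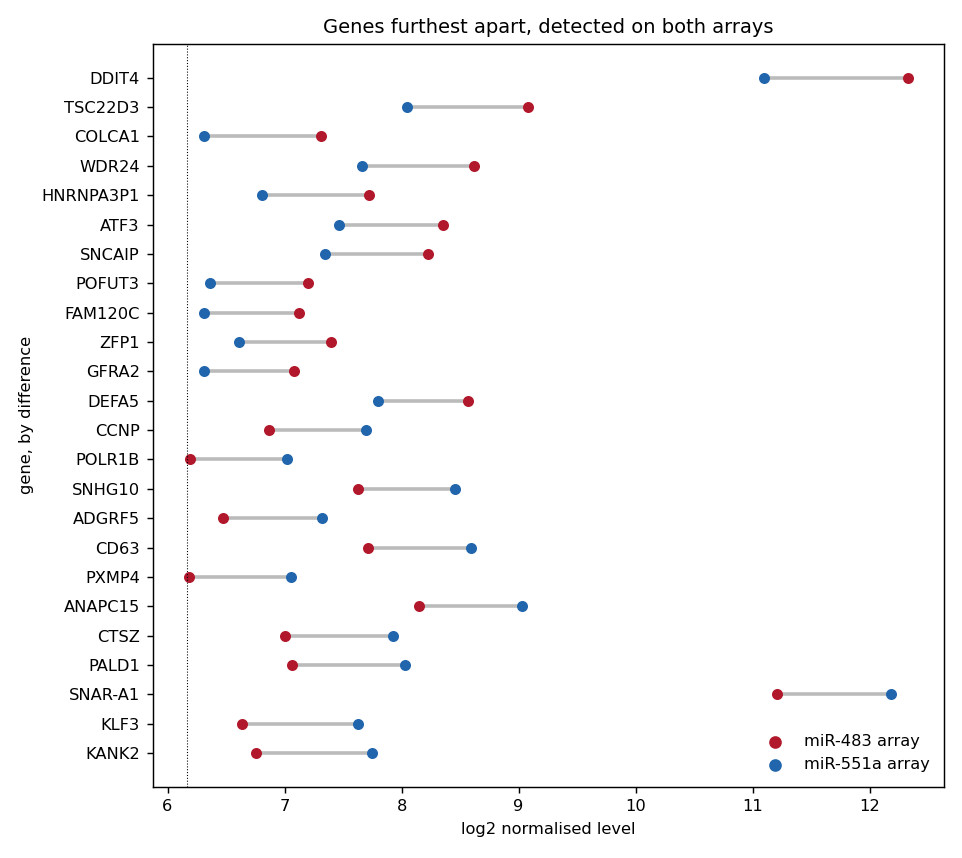
Log2 normalised level (x axis) of the 12 genes furthest higher and the 12 furthest lower with miR-483 among genes detected on both arrays (y axis, ordered by difference). Red points are the miR-483 array, blue points the miR-551a array, and the dotted line marks 6.16, the lowest level detected on the miR-551a array. DDIT4 and SNAR-A1 are the only pairs with both levels above 11.

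Genes seen on 1 array alone can be given only as limits, which here are on the background-corrected, quantile-normalised scale; without background correction the signals include background and the folds are smaller for several genes. TRIM60, a member of the tripartite motif family, had a signal of 455.0 with miR-483 and 102.0 with miR-551a, which makes it at least 4.94-fold higher with miR-483 on that scale and 4.10-fold higher without background correction. Its other probe was not detected on either array, with scores of 0.655 and 0.0962, so the probes disagreed. RUSC2, a Rab-binding adaptor, had signals of 382.3 and 106.1 and was at least 3.96-fold higher, or 3.30-fold without background correction. Neither gene was detected on the LvM3b control or the Ls-Parental array, so the signal stood on the miR-483 array alone of the 4. CHAC1, which ATF4 induces and whose product breaks down glutathione, had signals of 232.6 and 113.1 and was at least 1.95-fold higher, or as little as 1.87-fold under the other settings. The complement gene C4A was at least 1.39-fold and KLHDC8A at least 1.28-fold higher. Of the 450 genes detected on 1 array, 6 had a limit of at least 1.2-fold higher with a score not above 0.95 on the other array, and 0 had such a limit on the lower side. The homeobox gene HOXB6 exceeded 0.95 on the miR-483 array and so was not counted there, and its limit was at least 1.83-fold lower in that culture, or as little as 1.43-fold under the other settings, from signals of 151.5 and 200.1.

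Genes with several probes show how far a single difference can be trusted. Over 2214 genes with at least 2 probes detected on both arrays, the differences of the 2 brightest probes correlated at r = 0.146 (Spearman 0.158), as a description across genes that share both arrays, and had the same sign in 55.6%. The spread between probes of a gene corresponded to an SD of 0.182 on the log2 scale, narrower at 0.137 for the 792 genes with a mean level of at least 10. Of 10 genes whose brighter probe was 1.5-fold apart, the second probe had the same sign in 5 and was itself 1.5-fold apart in that direction in 1, TSC22D3. ASNS, asparagine synthetase, gave 12.10 and 11.88 at its brightest probe, higher with miR-483, and 7.47 and 8.88 at a dimmer one, lower by 1.42 on the log2 scale. The probes of GCLC, a subunit of the enzyme for the first step of glutathione synthesis, differed by -0.11 and -1.02.

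**Figure D3:**
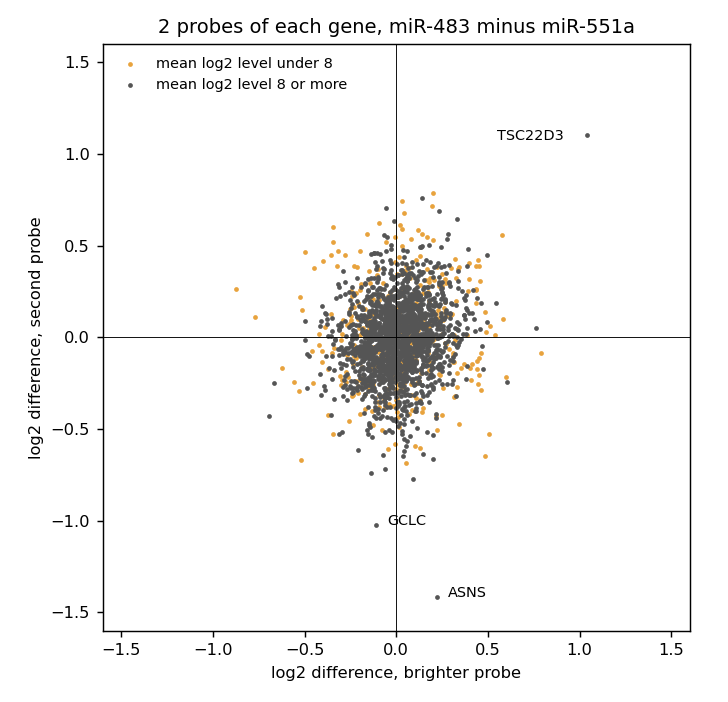
Log2 difference (miR-483 minus miR-551a) of the brighter probe (x axis) and the second brightest probe (y axis) of 2214 genes with at least 2 probes detected on both arrays, orange where their mean log2 level was under 8. TSC22D3 is alone at the upper right, and the cloud is nearly round, with r = 0.146.

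The amino acid response list, genes known to be induced through ATF4, had the highest median of the 37 lists with at least 3 detected members. The lists were chosen with earlier results of these data known, so this rank is only a description. Of 28 genes listed, 21 were detected and 19 of these were higher with miR-483, beside 4872 of all 9758 detected genes. The median log2 difference was 0.23 beside 0 over all detected genes. Members past 1.5-fold were 4 on the higher side, namely CHAC1, DDIT4, ATF3 and STC2, and 0 on the lower side. Over all detected genes the shares were 1.65% higher and 1.36% lower. CHAC1 was not detected on the miR-551a array, so its difference is a limit. Among genes with at least 2 probes on both arrays, 3 of 6 had all their probes in 1 direction, which bears on how far the small differences can be read.

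The regulators come first by role. ATF4 itself was at 14.80 with miR-483 and 14.56 with miR-551a, with log2 differences of 0.30 and -0.20 at its dimmer probes and of 0.11 as the mean over probes. CEBPB, a partner of ATF4, was 0.30 higher and DDIT3, which encodes the stress factor CHOP, was 0.57 higher on the log2 scale, at 8.41 and 7.83. The inhibitory pseudokinase TRIB3 was 0.21 higher. ATF5, a relative of ATF4, went the other way by -0.18. Among secreted and signalling targets, STC2, stanniocalcin, was at 11.37 and 10.78, a 1.51-fold difference that none of the 500 genes nearest in level reached in that direction. The enzymes of serine and one-carbon metabolism all lay on the higher side at their brightest probes, and by little. Log2 differences were 0.28 for PSAT1, 0.25 for MTHFD2, 0.18 for SHMT2, 0.16 for PSPH and 0.11 for PHGDH. A second PSPH probe gave -0.01. PCK2, the mitochondrial enzyme that makes phosphoenolpyruvate, was 0.26 higher and CTH, which makes cysteine, 0.24 higher. Their dimmer probes gave 0.39 and 0.18 for PCK2, and 0.0005 and 0.04 for CTH. CBS, the enzyme before CTH, was detected on the miR-551a array alone and its limit was a log2 difference of -0.15. The differences of these enzymes are close to the probe spread of 0.182.

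Neighbouring groups showed less. Of 13 detected amino acid transporters, 8 were higher and 5 lower, with a median of 0.05. SLC6A9, a glycine transporter, was at 7.61 and 6.95, and SLC38A2, a starvation-induced transporter of neutral amino acids, at 12.37 and 12.06. SLC7A11, the cystine transporter, differed by 0.05. Of 19 cytosolic aminoacyl-tRNA synthetases, 14 were higher and 5 lower, with a median of 0.03 and none past 1.5-fold. Of 18 endoplasmic reticulum chaperones, 10 were lower and 7 higher, with a median of -0.03. CRELD2 was lower by -0.37, HYOU1 by -0.35 and HSPA5, the chaperone BiP, by -0.33, so these 3 lay on the side opposite to most amino acid response genes, while XBP1, a transcription factor of the same stress, was 0.26 higher. Hypoxia-inducible genes, to which DDIT4 also belongs by its biology, had a median of 0.03 over 18 detected members, with INSIG2 highest at 0.51.

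The heat shock chaperones lay on the other side. Of 18 detected, 15 were lower with miR-483, with a median of -0.12, and none was past 1.5-fold. The inducible HSPA1B was at 12.91 with miR-483 and 13.35 with miR-551a, or 1.35-fold. HSPA4 differed by -0.34, its relative HSPA4L by -0.31, CHORDC1, an HSP90 co-chaperone, by -0.29, and the adaptor STIP1 by -0.24. HSPA8, the constitutive chaperone whose promoter is shown above, was at 14.76 and 14.92. The exceptions were HSPA9 (0.14) and HSPB1 (0.07), with HSPE1 at 0.00. Under median scaling 12 of the 18 were lower and the median was -0.02 where that of all genes was 0.09. Among the 4 with several probes on both arrays, all probes had the same direction in 1.

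**Figure D4:**
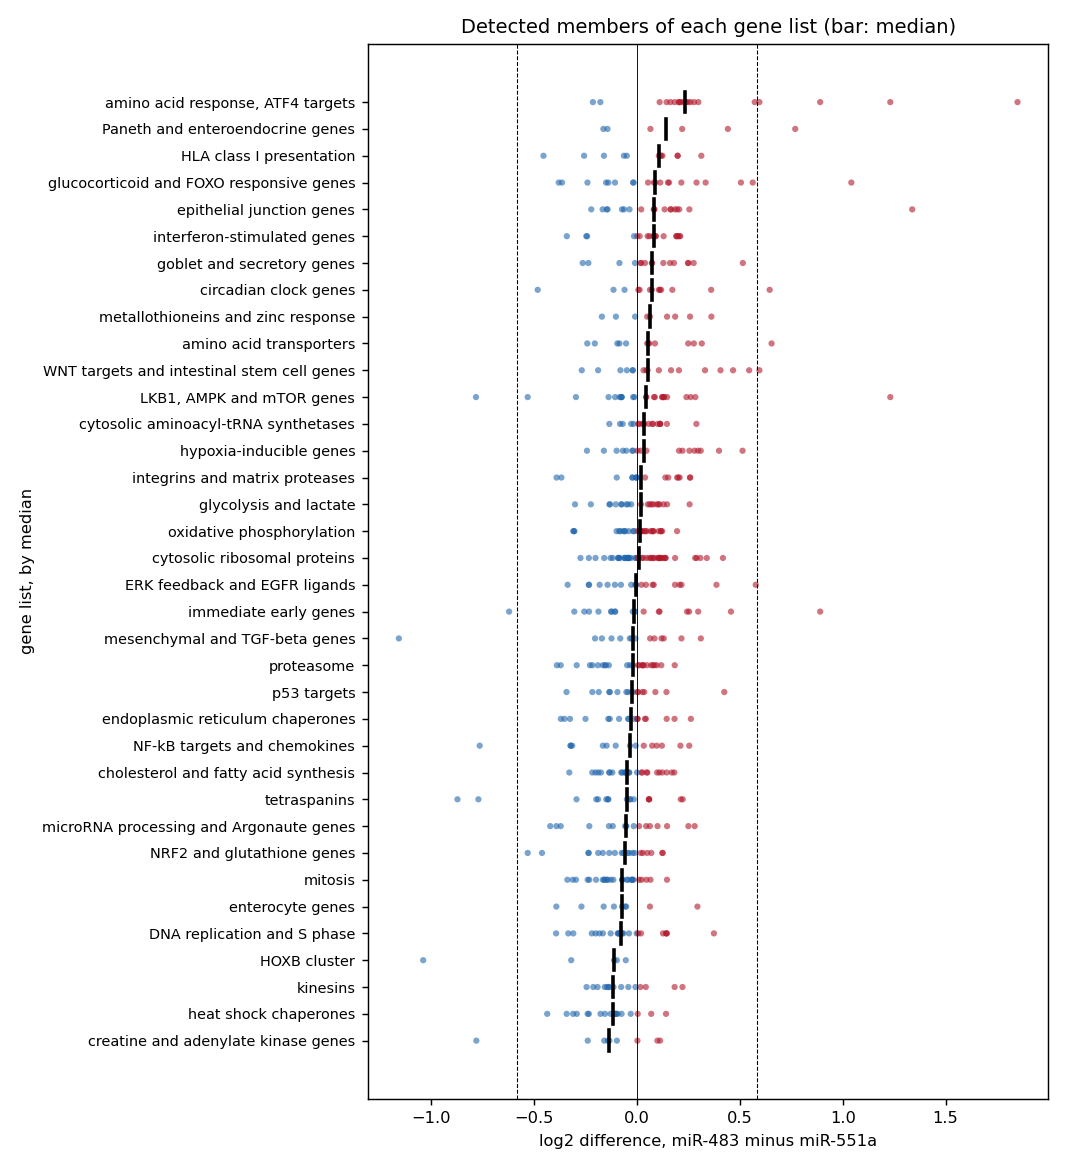
Log2 difference (miR-483 minus miR-551a, x axis) of every detected member of each gene list (y axis, ordered by median). Red points were higher and blue points lower with miR-483, black bars are medians and dashed lines mark 1.5-fold. The amino acid response list is at the top with a median of 0.23, and most other medians lie within 0.12 of 0.

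Levels on the other arrays show where these genes stood, on all 4 arrays normalised together. DDIT4 was at 13.20 in Ls-Parental, 12.94 in the LvM3b control, 12.30 with miR-483 and 11.07 with miR-551a. ATF3 was at 9.53, 8.88, 8.35 and 7.46, and CHAC1 at 7.92, 7.31, 7.13 and 5.29, undetected on the last, in the same order. The miR-551a array was thus the lowest of the 4 for these genes, while miR-483 was nearer to the control. Of the 19 amino acid response genes higher with miR-483 than with miR-551a, 18 were lowest of the 4 on the miR-551a array, beside 46.8% of all detected genes on that side of the comparison. Of the 15 chaperones on the lower side, 14 were highest on the miR-551a array, beside 51.6% of all such genes. These counts are only a description, since the lists were chosen with earlier results of these data known. Some other lists did the same, and others did not. On the higher side, 8 of 8 amino acid transporters, 12 of 14 aminoacyl-tRNA synthetases and 6 of 6 metallothionein and zinc genes were lowest there. On the lower side, 12 of 14 NRF2 genes, 14 of 17 replication genes and 12 of 13 proteasome genes were highest there. So were 4 of 5 aminoacyl-tRNA synthetases. By contrast, 0 of 12 proteasome, 2 of 17 oxidative phosphorylation and 2 of 11 glycolysis genes on the higher side were lowest there. Only 4 of 22 ribosomal protein genes on the lower side were highest there, so the placing was not common to all lists. HSPA1B was at 12.17 in Ls-Parental, 12.35 in the control, 12.89 with miR-483 and 13.32 with miR-551a. TSC22D3 was at 9.37, 9.62, 9.07 and 8.04 in that order.

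**Figure D5:**
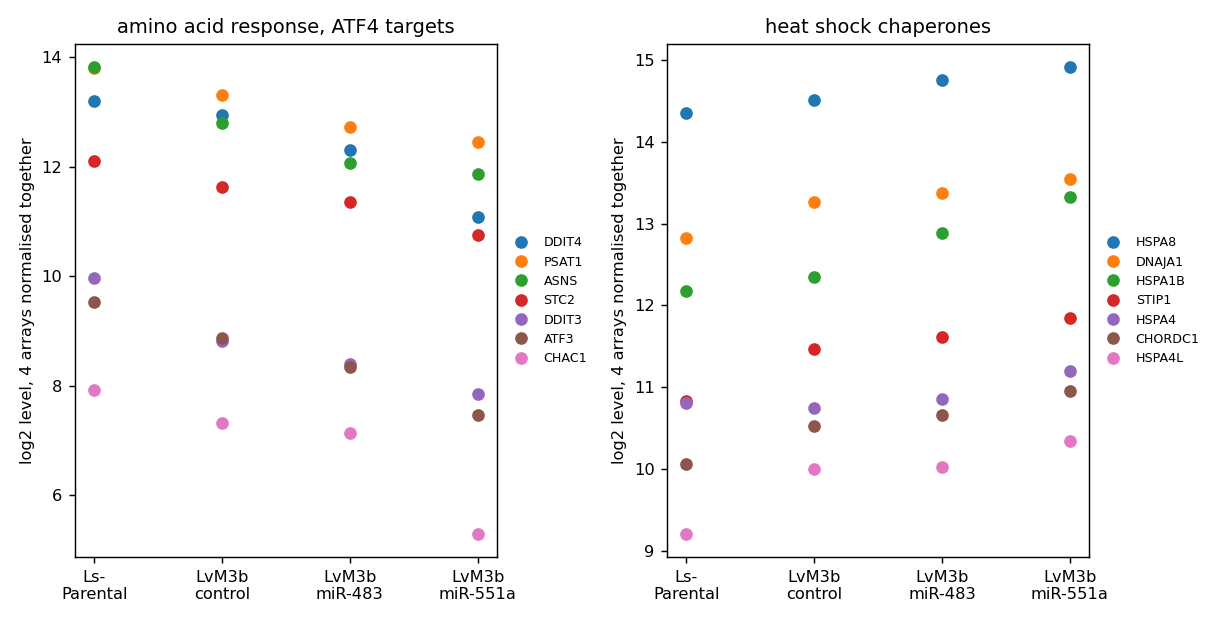
Log2 level (y axis, 4 arrays normalised together) of 7 amino acid response genes (left) and 7 heat shock chaperones (right) on each array (x axis, 1 array per culture, no order implied). All 7 amino acid response genes plotted were lowest and all 7 chaperones plotted were highest on the miR-551a array. The genes plotted were chosen without a set rule. Over all detected members, 18 of 21 amino acid response genes were lowest and 14 of 18 chaperones highest there.

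Other genes had a different placing. WDR24 was at 8.61 with miR-483 and between 7.67 and 7.92 on the other 3 arrays, so its miR-483 level was the one that stood apart. DEFA5 was at 7.80 on both the control and miR-551a arrays, 8.56 with miR-483 and 10.85 in Ls-Parental. KLF3 was at 6.65 with miR-483 and between 7.51 and 7.65 elsewhere. CD63 was at 7.72 with miR-483, 8.58 with miR-551a, 9.14 in the control and 9.56 in Ls-Parental. KANK2 had its high level with miR-551a, 7.75, and was between 6.43 and 6.77 on the other arrays.

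The list of energy and nutrient signalling genes showed no common direction. Of 24 detected genes of LKB1, AMPK and mTOR signalling, 11 were lower and 13 higher, with a median of 0.04. DDIT4, described above, was its highest member. STK11, which encodes the AMPK-activating kinase LKB1, was at 6.55 with miR-483 and 7.33 with miR-551a, or 1.72-fold lower, which dropped to 1.37-fold without background correction. RPTOR, the mTORC1 subunit raptor, was detected on the miR-551a array alone, with a limit of -0.29, and RHEB, the activator of mTORC1, by 0.24 at 12.30 and 12.06. The catalytic AMPK gene PRKAA1 was at 11.21 and 11.23.

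Brain creatine kinase, CKB, makes phosphocreatine from creatine and has been described as a target of both microRNAs. It was at 9.85 with miR-483 and 9.98 with miR-551a, a 1.10-fold difference. A difference at least that far in that direction was found in 93 of 500 genes of similar level, so CKB lay within the scatter of such genes. The creatine transporter SLC6A8 was not detected on the miR-483 array and was at least 1.33-fold lower there on the background-corrected scale, or as little as 1.27-fold under the other settings, from signals of 142.6 and 167.2. The mitochondrial creatine kinases CKMT1A and CKMT1B, near-identical copies whose probes may share transcripts, differed by 0.10 and -0.16. Over 9 detected creatine and adenylate kinase genes, 6 were lower and the median was -0.13.

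Genes of microRNA action differed by less than 1.5-fold. AGO2, the Argonaute that can cut its target, was at 9.72 and 10.14, DICER1, which cuts the hairpin, was at 8.86 and 9.25, and GEMIN4 was at 11.21 and 11.58, all lower with miR-483. AGO3 and RAN, the export factor partner, were higher by 0.25 and 0.28. A second AGO3 probe pointed the other way, with a log2 difference of -0.43. Of the 17 detected, 10 were lower and 7 higher, with a median of -0.05 that became 0.05 under median scaling.

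Differentiation genes of the gut differed in small steps, in both directions. Of 16 detected goblet and secretory genes, 12 were higher with miR-483 and the median was 0.07, or 0.06 with undetected levels at their limit. The mucin gene MUC2 was at 7.51 and 6.99, and the trefoil gene TFF3 at 12.96 and 12.78. Beside DEFA5, the defensin gene DEFA6 was at 9.33 and 8.89, and the list of Paneth and enteroendocrine genes had 4 of 6 detected members higher. Of 9 enterocyte genes, 7 were lower, with a median of -0.07, but under median scaling 4 were lower and 5 higher. Of 19 junction genes, 12 were higher with a median of 0.08. E-cadherin, CDH1, was at 13.10 and 12.93, and MARVELD2, a tricellular junction protein seen on the miR-483 array alone, was at least 1.12-fold higher. Among 17 WNT target and stem cell genes, 11 were higher. NKD1, a feedback inhibitor of WNT, was at 10.25 and 9.71, while AXIN2, another, was at 12.55 and 12.57 and LGR5 was at 7.72 and 7.91. Of 17 tetraspanins, 12 were lower, against 8 under median scaling, with CD82 beside CD63 past 1.5-fold. CD82 was at 6.64 and 7.41, and its second probe gave 0.11 in the other direction. All 5 detected genes of the HOXB cluster were lower, with HOXB8 at 8.78 and 9.10, although 1 of the 5 turned higher under median scaling.

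Growth and housekeeping lists sat near 0. Of 27 mitosis genes, 22 were lower with miR-483, with a median of -0.07, but under median scaling 13 were lower and 14 higher. KIF2C was at 9.24 and 9.58, and CCNB1, cyclin B1, at 10.45 and 10.57. Of 24 replication genes, 17 were lower with a median of -0.08, against 8 under median scaling. Of 49 ribosomal protein genes, 22 were lower and 27 higher. Of 29 oxidative phosphorylation genes, 12 were lower and 17 higher, and of 21 glycolysis genes, 10 and 11. Medians were 0.01 for ribosomal proteins, 0.01 for oxidative phosphorylation and 0.02 for glycolysis. Of 18 interferon-stimulated genes, 14 were higher with a median of 0.08, or 0.07 with undetected levels at their limit, and of 12 genes of HLA class I presentation, 7 were higher. Immediate early genes split into 12 lower and 8 higher, with KLF10 at 6.88 and 7.50, ATF3 as above, and FOS at 10.91 and 10.67. In the list of NF-kB targets, TNIP2 was at 6.87 and 7.64, while NFKBIA was at 11.05 and 11.09. Lists share members, DDIT4 and ATF3 among them.

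The cell type given by the labels was checked on its markers. Of 10 colon epithelium markers, 9 were detected and KRT20 was not, and EPCAM was at 15.29 and 15.20. Of markers of other cells, 1 of 8 hepatocyte genes, 2 of 8 fibroblast genes, 1 of 6 immune genes and 1 of 4 endothelial genes were detected, namely SERPINA1, LUM and COL3A1, LYZ, and PECAM1. Their log2 differences were 0.45, -0.34, -0.21, 0.22 and, as a limit for PECAM1, 0.19, and ALB, COL1A1, PTPRC and VWF were not detected on either array. The arrays were of like brightness, with median signals of 112.5 for miR-483 and 103.6 for miR-551a and with 14556 and 14447 of 48803 probes detected.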

How the data were processed

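The members and gene lists were chosen with earlier results of these data known. Per the file headers, the authors deposited a table of signals, linear probe intensity values not normalised between arrays, with a Detection score from 0 to 1 for each probe. The authors' deposited processed intensity table equals it times 1 factor per array (1.03 for miR-483 and 1.11 for miR-551a), which sets both medians to 115.4; scale and direction follow from that and no centring was found. The software and background handling behind the signals are not given in the sources used here. No bead numbers were given, so precision within an array is unknown.

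From the deposited intensity values, limma 3.58.1 in R 4.3.3 computed normexp correction from detection p (1 minus Detection), with an offset of 16, quantile normalisation of these 2 arrays and log2 values. The platform annotation gave 1 gene for 27578 of 48803 probes, several for 13 and no gene for 21212, and 27541 were updated by gene number through RefSeq. A gene took its brightest probe. A limit compared the brighter level with the lowest detected level of the other array, or with the gene's level on it where that was higher. With 1 array per group no test was made. The steps were tried on simulated arrays in which only probes well above background were changed, so changes in dim genes were not covered. Named genes were the 12 furthest in each direction past 1.5-fold, the 5 largest limits in each direction, genes whose probes all passed 1.5-fold, up to 4 list members past 1.5-fold or else the 2 brightest, CKB, IGF2 and MEGF6; other list members, and ASNS and GCLC for their dimmer probes, were named after their values were seen.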

Additional observations from a re-analysis of the deposited data

How the results depend on the processing

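Each group had 1 array, so no alternative could leave a replicate out, and no paired analysis was possible because each group had 1 array. Genes 2-fold lower with miR-483, 10 as reported, numbered 0 in the authors' processed values, 0 with quantile normalisation and no background correction, 0 with a normexp offset of 50, 22 at a Detection score above 0.95, 0 among genes detected on both arrays, 0 with limits for undetected levels and 133 at 1.5-fold. Genes 2-fold higher, 32 as reported, numbered 3, 3, 6, 2, 4 and 161 under the same settings, leaving out the Detection score, where they were 42. The 3 were DDIT4, TRIM60 and RUSC2 in both tables without background correction. Normalising 4 arrays together gave 10 and 30, and median scaling gave 7 and 40. Of 94 named genes, 41 were past 1.5-fold. All 41 kept their sign in all 6 settings of normalisation, background or probe choice, and 21 to 41 of them stayed past 1.5-fold. The settings reprocess the same signals of genes picked for large differences, so the kept signs are no independent support. The mean over probes includes the brightest probe, so it did not show that detected second probes of ZFP1, PXMP4 and CD82 pointed the other way. Of the 37 lists with at least 3 detected members, none had a median that moved by 0.182 or more. Only the amino acid response median was itself that large, so this rule could not show whether the rest kept their direction. Several changed sign between settings. The mitosis median ran from -0.11 to 0.02, the enterocyte median from -0.08 to 0.02 and the tetraspanin median from -0.05 to 0.03. The remaining 4 lists, all of markers of other cells, were not followed. The amino acid response median ran from 0.21 to 0.33 and the chaperone median from -0.12 to -0.02. Seed matches in 3′ untranslated regions, planned for both microRNAs, were not run. Signal close to background limits the dim genes, and 1 array per culture limits all.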

Other observations

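Of the probes with no gene name, 2338 were detected on at least 1 of the arrays and 2100 on both. Among the latter, 23 were 1.5-fold lower and 16 were 1.5-fold higher with miR-483, and 0 passed 2-fold in either direction. Of 2620 dimmer probes of named genes detected on both arrays, 22 were 1.5-fold lower and 20 were 1.5-fold higher, and for 1 of these the brightest probe of its gene was also 1.5-fold apart in the same direction.

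Genes of the NRF2 response, which answers oxidative stress, were lower with miR-483 in 14 of 20 detected cases, with a median log2 difference of -0.06 that became 0.04 under median scaling. The aldo-keto reductase genes AKR1C2 and AKR1B10 were lower by -0.53 and -0.46. The clock gene DBP stood at log2 levels of 8.53 in the miR-483 culture and 7.88 in the other, and 10 of 13 detected clock genes were higher. Of 15 kinesin genes in the list, 11 were lower with a median of -0.11, against 8 and -0.03 under median scaling.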
